A study of Mus musculus with 6 samples.

Results

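The 9 genes followed here are known for their roles in the growing egg, or oocyte, and were Nobox, Figla, Zp1, Zp2, Zp3, Gdf9, Bmp15, Oosp1 and Nlrp5. All 9 were found on the array among 18749 named genes, through 12 of its 41174 probes, by matching the RefSeq identifier of each probe to the gene symbol. The cells were mouse embryonic stem cells of strain 129/Ola that had been differentiated on gelatin in N2B27, a medium without serum that favours neural fates, and the labels name no engineered allele. At day 3 they had received either the solvent DMSO or the histone deacetylase inhibitor trichostatin A (TSA) for 24 h. The labels give no dose of TSA and do not say how many stem cell lines or clones were used. There were 3 independent experiments, each with a DMSO and a TSA sample, and the total RNA of every sample went onto its own single-colour Agilent array, which gave 6 arrays on 3 slides.

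NOBOX and FIGLA are transcription factors of the oocyte. FIGLA is needed for the zona pellucida genes, binding short DNA sites known as E-boxes as a dimer with a partner protein, and NOBOX is a homeodomain protein needed for early follicles and for genes such as Gdf9, Bmp15, Oosp1, Mos and Zar1. ZP1, ZP2 and ZP3 are the glycoproteins of the zona pellucida, the coat of the egg to which sperm bind. GDF9 and BMP15 are growth factors that the oocyte secretes toward the surrounding granulosa cells, and OOSP1 is a secreted protein of the oocyte. NLRP5, also called MATER, belongs to the subcortical maternal complex, a protein assembly of the egg that the early embryo needs.

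The RefSeq promoter table (build GRCm38.p6) matched 6 of the 9 genes, and Zp1, Zp2 and Gdf9 were not matched. The 250 bases before the start are shown for Nobox, Figla and Zp3, the genes whose TSA arrays all lay above all DMSO arrays and above background. Capitals mark CANNTG, the E-box, and TAATTA or TAATTG on either strand, a homeodomain site of the kind NOBOX binds.
Nobox promoter, GRCm38.p6 chr6:43309555-43309804, strand -: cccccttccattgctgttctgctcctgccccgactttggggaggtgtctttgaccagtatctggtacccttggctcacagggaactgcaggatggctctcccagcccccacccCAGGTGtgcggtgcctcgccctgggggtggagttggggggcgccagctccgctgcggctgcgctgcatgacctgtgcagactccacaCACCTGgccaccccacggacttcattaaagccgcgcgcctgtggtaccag
Figla promoter, GRCm38.p6 chr6:86016941-86017190, strand +: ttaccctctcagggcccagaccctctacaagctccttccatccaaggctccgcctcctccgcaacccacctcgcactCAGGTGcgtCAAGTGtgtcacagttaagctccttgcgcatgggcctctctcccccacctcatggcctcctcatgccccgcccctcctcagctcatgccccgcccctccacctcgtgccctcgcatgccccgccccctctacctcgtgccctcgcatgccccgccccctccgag
Zp3 promoter, GRCm38.p6 chr5:135979855-135980104, strand +: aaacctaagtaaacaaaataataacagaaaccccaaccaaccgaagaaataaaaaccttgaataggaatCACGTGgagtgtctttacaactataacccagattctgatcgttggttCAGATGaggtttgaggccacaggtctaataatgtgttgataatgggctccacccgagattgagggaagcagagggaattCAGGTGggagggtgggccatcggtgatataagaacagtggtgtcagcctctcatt
The Nobox window held 2 E-boxes, which began 137 and 50 bases before the start. The Figla window held 2, at 173 and 164 bases, and the Zp3 window 3, at 181, 134 and 55 bases. CANNTG reads the same on both strands, no marked sites overlapped, and 66.2% of the 32851 windows of this length in the table held at least 1. The forms CAGGTG or CACCTG, singled out after these letters were seen, occurred in each of the 3 windows, in 2 places in the window of Oosp1, a gene above background on no array, and in 17.2% of all windows. TAATTA or TAATTG occurred in none of the 3 windows, once in the Bmp15 window, once in 1 of the 2 Nlrp5 windows, and in 11.3% of all windows. The windows also differed in CG dinucleotides, with 11 for Nobox, 14 for Figla, 5 for Zp3, 2 for Bmp15, 4 for Oosp1, 7 and 1 for the Nlrp5 windows, and a median of 6 over all windows. These matches describe letters only, since binding was not measured.

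Levels are given as the processed signal of a probe in percent of the 75th percentile of its array, and differences on the log2 scale, TSA minus DMSO, with limma's standard error. A probe was called present on an array where the scanner software marked it well above background, and the lowest such signal was 1.055% to 1.96% of the 75th percentile on DMSO arrays and 1.56% to 3.43% on TSA arrays. The 75th percentile was 632 to 926 intensity units on 5 of the arrays and 311 on TSA replicate 2, which correlated with TSA replicates 1 and 3 at 0.931 and 0.939. Those correlations were lower than the 0.9897 between TSA replicates 1 and 3 and the 0.9843 to 0.9880 among the DMSO replicates. Of the spots on an array, 61.1% to 72.3% lay well above background. The position on the slide was 3 for all DMSO samples and 4 for all TSA samples, and its effect cannot be told apart from treatment. Markers of the labelled cell type were read for presence only. Presence could not check the cell type, since most spots lay well above background and primordial germ cell markers were present too. All 8 pluripotency and epiblast genes examined, among them Pou5f1 and Dnmt3b, and all 5 early neural genes with a probe, among them Sox2 and Nes, were present on all 6 arrays.

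Among the transcription factors, Nobox rose in TSA. Its signal was 1.49%, 1.35% and 1.07% on DMSO replicates 1, 2 and 3, and 8.38%, 7.41% and 4.63% on TSA replicates 1, 2 and 3. The Nobox probe was present on 3 of 3 TSA arrays and 0 of 3 DMSO arrays, without overlap between the groups. Against the background of the DMSO arrays it was at least 4.45-fold higher in TSA, a lower bound for which each DMSO array counted at its lowest present signal, or at the probe's own signal if higher. This bound takes in background only, not the spread between arrays or the scaling. The fit gave a difference of 2.35 ± 0.29 (adjusted p = 0.0317), with a 95% interval of 1.66 to 3.05 for this probe alone. The differences on slides 1, 2 and 3 were 2.49, 2.45 and 2.12. Before any scaling between arrays its signal was 8.84 to 9.89 intensity units in DMSO and 23.0 to 56.2 in TSA, which also did not overlap. On slide 2 it read 8.84 units in DMSO and 23.0 in TSA. The 75th percentile of that TSA array was lower by 1.07 on the log2 scale, so part of the slide 2 difference came with the scaling. Nobox entered the test only through its TSA arrays, and it had been singled out from earlier results on these arrays, so its call is not independent evidence. In bulk samples, more cells with Nobox RNA and more Nobox RNA per cell cannot be told apart.

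Limits of the Nobox call lay in the number of arrays and in the processing of the signal. Without DMSO replicate 1, 2 or 3, or TSA replicate 1 or 3, the call ended (adjusted p between 0.0600 and 0.173 by limma), as it did for every probe on the array, while the difference stayed between 2.18 and 2.61. With normexp background correction, which adds an offset of 50 units to every spot, and quantile normalization together, the difference was 0.46 (adjusted p = 0.167), and in the authors' table it was 1.35 (adjusted p = 0.0566). The call also ended with no filter, with no scaling between arrays and without slide 2 (adjusted p = 0.0597, 0.593 and 0.0719 by limma). It held in 9 of 19 alternative settings.

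Figla was present on all 6 arrays. Its signal was 2.28%, 2.79% and 4.65% on DMSO replicates 1, 2 and 3, and 9.42%, 10.8% and 9.51% on the TSA replicates. The lowest TSA array lay above the highest DMSO array, and DMSO replicate 3 was the highest of its group. The difference was 1.68 ± 0.30, or 3.20-fold, with a 95% interval of 0.96 to 2.40 for this probe alone, and it did not pass over all probes (adjusted p = 0.0681, or 0.0545 in a fit that blocks on the slide). On slides 1, 2 and 3 it was 2.05, 1.95 and 1.03. When each gene stood by the mean of its probes and p-values were adjusted over the 14526 genes instead of 28158 probes, Figla passed (adjusted p = 0.0342), although it has a single probe and the same difference. Before scaling, the Figla signal on TSA replicate 2 was 33.5 intensity units, below the 43.1 units of DMSO replicate 3.

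**Figure D1:**
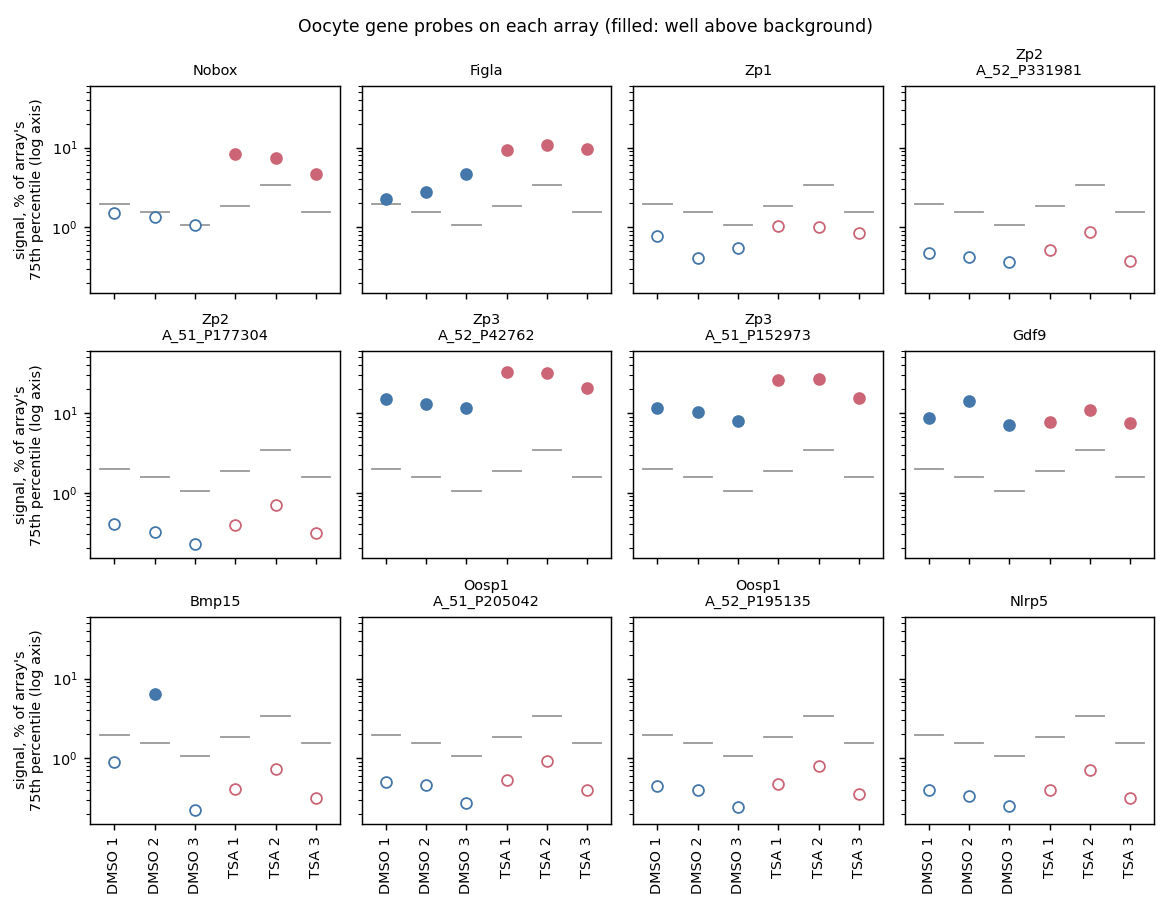
Signal of the 12 probes of the 9 oocyte genes on each array, in percent of the array's 75th percentile on a log axis, with blue for DMSO and red for TSA. Filled points are well above background, open points are not, and each grey bar is the lowest signal called well above background on that array; Nobox is open on all 3 DMSO arrays and filled on all 3 TSA arrays, while Figla, Zp3 and Gdf9 are filled on all 6.

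Of the zona pellucida genes, Zp3 was present on all 6 arrays, and Zp1 and Zp2 on none. The brighter of the Zp3 probes, A_52_P42762, gave 14.9%, 12.8% and 11.6% on DMSO replicates 1, 2 and 3 and 32.6%, 31.6% and 20.8% on the TSA replicates. The other, A_51_P152973, gave 11.5%, 10.4% and 8.04% in DMSO and 25.9%, 26.9% and 15.5% in TSA. With both probes every TSA array lay above every DMSO array, and TSA replicate 3 was the lowest of its group. The differences were 1.09 ± 0.25 (2.13-fold) and 1.16 ± 0.29 (2.24-fold), and neither passed (adjusted p = 0.125 and 0.152, or 0.0626 and 0.0558 when blocked on the slide). On slide 2 the size of the difference came with the scaling of a dim array. There the first probe read 83.9 units in DMSO and 98.1 in TSA before scaling, and the 75th percentile of the TSA array was lower by 1.07 on the log2 scale. On slides 1 and 3, where the 75th percentiles of the pair differed by -0.08 and 0.07, the scaled differences were 1.13 and 0.85.

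The Zp1 probe gave 0.42% to 0.77% in DMSO and 0.85% to 1.04% in TSA, and the Zp2 probes 0.23% to 0.48% and 0.31% to 0.87%. All of these lay below the lowest signal called well above background on their arrays. They only bound the level of Zp1 and Zp2 from above, so no fold is given.

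Among the secreted factors, Gdf9 was present on all 6 arrays at similar signal in both treatments. It gave 8.55%, 14.1% and 7.02% on DMSO replicates 1, 2 and 3 and 7.78%, 11.1% and 7.46% on the TSA replicates, and the groups overlapped. The difference was -0.13 ± 0.32 (adjusted p = 0.879), with a 95% interval of -0.91 to 0.64 and values of -0.14, -0.35 and 0.09 on slides 1, 2 and 3.

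Bmp15 was above background on 1 array, DMSO replicate 2, where it gave 6.32%, against 0.91% and 0.22% on DMSO replicates 1 and 3 and 0.32% to 0.72% in TSA. It was not tested, and its signal on a single array has no replicate. Oosp1 was above background on 0 arrays with either probe, at 0.24% to 0.50% in DMSO and 0.36% to 0.92% in TSA.

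Nlrp5, of the subcortical maternal complex, was also above background on 0 arrays, at 0.25% to 0.40% in DMSO and 0.31% to 0.71% in TSA. The 6 probes of Zp1, Zp2, Oosp1 and Nlrp5 read 2.08 to 7.49 intensity units on all arrays. After scaling they differed by 1.01 to 1.29 on slide 2, by -0.04 to 0.43 on slide 1 and by 0.02 to 0.61 on slide 3. The values of slide 2 lie beside the 1.07 by which its TSA array was dimmer, so the higher scaled signal of these probes on TSA replicate 2 is not given as a change.

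**Figure D2:**
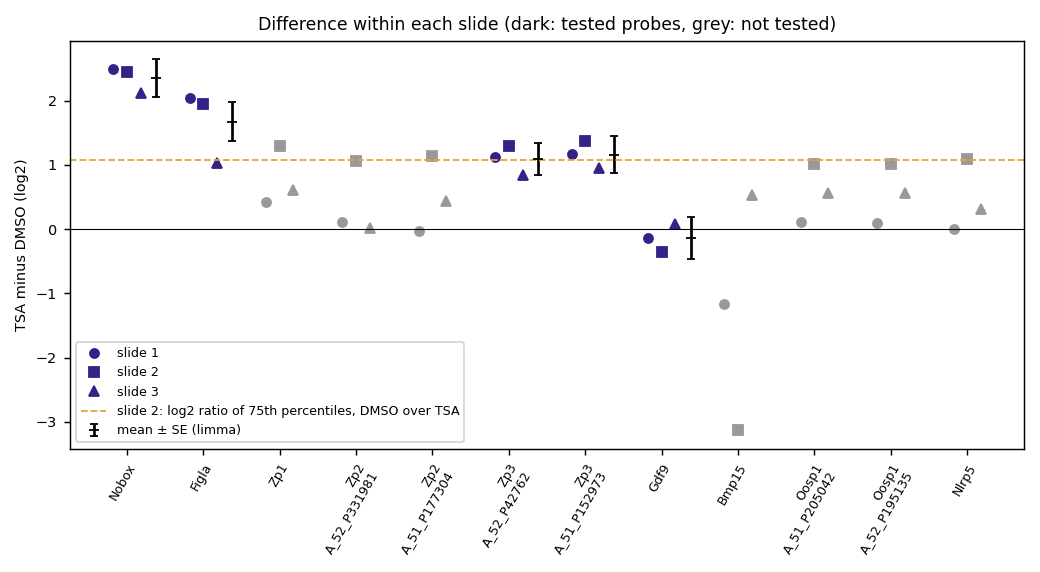
TSA minus DMSO on the log2 scale for each probe on slides 1, 2 and 3, with the mean and standard error for the 5 tested probes; the dashed line is the log2 ratio of the 75th percentiles of the slide 2 arrays. Nobox lies above 2 on every slide, Gdf9 lies near 0, and the grey squares of the probes present on no array lie near the dashed line.

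Of the 9 genes, 4 were tested, and 1 rose, 0 fell and 3 did not pass. Over all 14526 tested genes, 1.36% rose and 0.0551% fell (limma, adjusted p under 0.05). Every TSA array lay above every DMSO array for 3 of the 4 tested members, Nobox, Figla and Zp3, against 16.4% of all tested genes. With 4 genes, 1 of which had to be high in TSA to be tested, these counts are a description. Bounded for background at 2.15, the Nobox difference was larger than that of 99.03% of tested genes. Figla's difference was larger than that of 97.5%, Zp3's than 92.8% and Gdf9's than 30.0%. The median over all tested genes was 0.08. Presence on all 3 TSA arrays and 0 DMSO arrays was shared by 36 tested genes (0.248%), 15 of which rose, and the opposite pattern by 16.

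**Figure D3:**
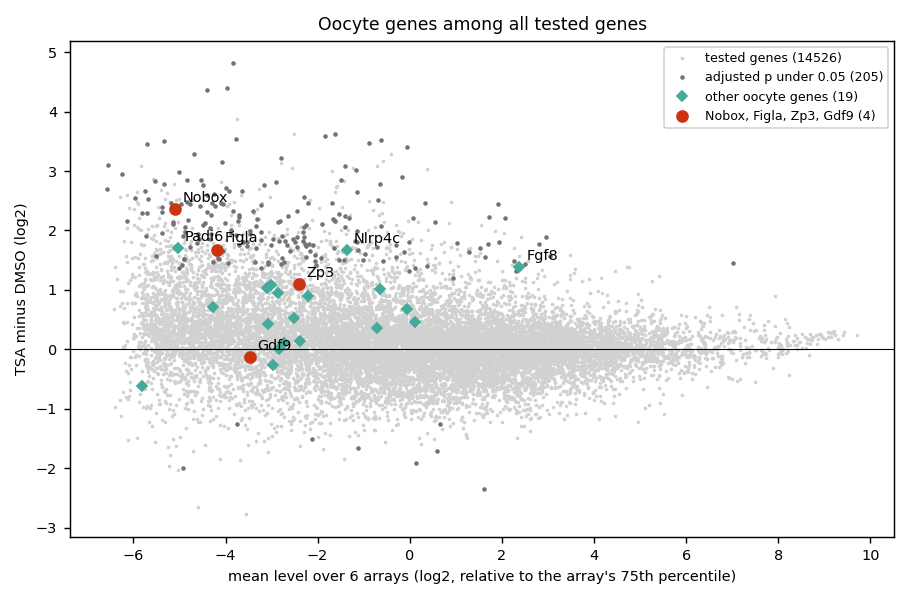
Difference between TSA and DMSO (log2) against the mean level over 6 arrays (log2, relative to the array's 75th percentile) for all 14526 tested genes, with the 205 genes past the threshold in dark grey. Nobox is among the dark points, while Figla and Zp3 lie high without being called and Gdf9 lies at the centre.

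Among other genes of the oocyte, Padi6 and Nlrp4c rose. Of 51 listed, 42 had a named probe, 14 were above background on no array, 17 on all 6, and 19 were tested. Of the 19, 17 had a higher mean in TSA, 2 rose and 0 fell, with 8 at an unadjusted p under 0.05 and a median difference of 0.68. Over all 14526 tested genes, 8443 lay higher in TSA by their mean, 1.36% rose, and 2167 (14.9%) had an unadjusted p under 0.05. Many of these genes are not exclusive to oocytes, and Fgf8, an embryonic growth factor, reached 187% to 625% of the 75th percentile in DMSO.

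The subcortical maternal complex was present more widely than Nlrp5. All 7 of its other genes were tested, and 1 rose and 0 fell, against 1.36% and 0.0551% of all tested genes. Padi6, of the peptidylarginine deiminase family and needed for the egg's cytoplasmic lattices, gave 1.52%, 1.63% and 1.95% on DMSO replicates 1, 2 and 3 and 6.19%, 6.42% and 4.13% on the TSA replicates. It was above background on 1 DMSO array and on all 3 TSA arrays, without overlap. The difference was 1.70 ± 0.25 (adjusted p = 0.0430), and blocking on the slide it missed the threshold (adjusted p = 0.0504). Quantile normalization alone also ended the call (1.53, adjusted p = 0.0693), and together with normexp it gave 0.33 (adjusted p = 0.278). The Padi6 probe met the filter through its TSA arrays, and 2 of its 3 DMSO values were not well above background, so the size of the difference is uncertain. Khdc3, an RNA-binding protein of the complex, gave 1.08 ± 0.27 (adjusted p = 0.148) and its partner Ooep 0.68 ± 0.24 (adjusted p = 0.330). Nlrp2 gave 0.00 ± 0.26, with an interval of -0.63 to 0.63, and Zbed3 gave -0.27 ± 0.23 (adjusted p = 0.678).

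Of 8 further oocyte genes of the Nlrp family with a probe, 3 were tested. Of these, 1 rose and 0 fell, against 1.36% and 0.0551% of all tested genes. Nlrp4c was present on every array and read 25.5%, 20.2% and 20.1% in DMSO and 83.9%, 62.4% and 62.9% in TSA, which did not overlap. It rose by 1.66 ± 0.23 (3.17-fold, adjusted p = 0.0373), with 1.72, 1.63 and 1.65 on slides 1, 2 and 3. On slide 2 the Nlrp4c probe read 132 units in DMSO and 194 in TSA before scaling, so part of that difference came with the scaling. Nlrp4c has close relatives, so its probe may also bind them. As for Nobox, the calls of Padi6 and Nlrp4c ended without DMSO replicate 1, 2 or 3 or TSA replicate 1 or 3. Nlrp14, a maternal effect gene, gave 1.04 ± 0.32 (adjusted p = 0.239) and Nlrp4a, above background on 2 DMSO arrays and 1 TSA array, -0.62 ± 0.40 (adjusted p = 0.610). Nlrp9b was above background on 2 TSA arrays and 0 DMSO arrays, and so was not tested.

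Of 6 further transcription factor genes with a probe, 2 were tested and 0 rose or fell by limma, with 1 at an unadjusted p under 0.05 (14.9% of all tested genes). Sohlh2, a factor that acts upstream of Nobox and Figla in the ovary, gave 1.02 ± 0.26 (adjusted p = 0.156), with 38.3% to 53.3% in DMSO and 77.2% to 119% in TSA. On slide 2 the Sohlh2 probe read 349 units in DMSO and 371 in TSA before scaling, so part of that difference came with the scaling. Taf4b, a subunit of the general transcription machinery in germ cells, gave 0.14 ± 0.22 (adjusted p = 0.814), and its second tested probe -0.26 ± 0.48. Lhx8, another oocyte factor, had lower signal in TSA, with 1.94% to 2.46% in DMSO, above background on 2 arrays, and 0.69% to 0.74% in TSA, above background on 0. It was not tested, and its second probe was above background on no array.

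Of 17 maternal effect and egg genes with a probe, 6 were tested, and 0 rose or fell by limma, with 2 at an unadjusted p under 0.05 (14.9% of all tested genes). Zar1, a maternal effect gene whose ovarian level is known to depend on NOBOX, was present on all 6 arrays, at 3.59% to 4.91% in DMSO and 5.77% to 7.79% in TSA, without overlap. Before scaling the Zar1 groups overlapped. On slide 2 its probe then read 24.7 units in DMSO and 24.2 in TSA, so the scaled difference there, 1.04, came with the scaling. Zar1 gave 0.71 ± 0.23 (adjusted p = 0.271), Tcl1 0.52 ± 0.20 (adjusted p = 0.366) and Cpeb1, which controls stored messenger RNA, 0.46 ± 0.21 (adjusted p = 0.473). Mos, the kinase that holds the egg in meiosis, was above background on 1 DMSO array. Of 4 zona, secreted and sperm-binding genes with a probe, only Fgf8 was tested (1.39 ± 0.78, adjusted p = 0.567). Oosp3 and Izumo1r, the sperm receptor Juno, were above background on no array.

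**Figure D4:**
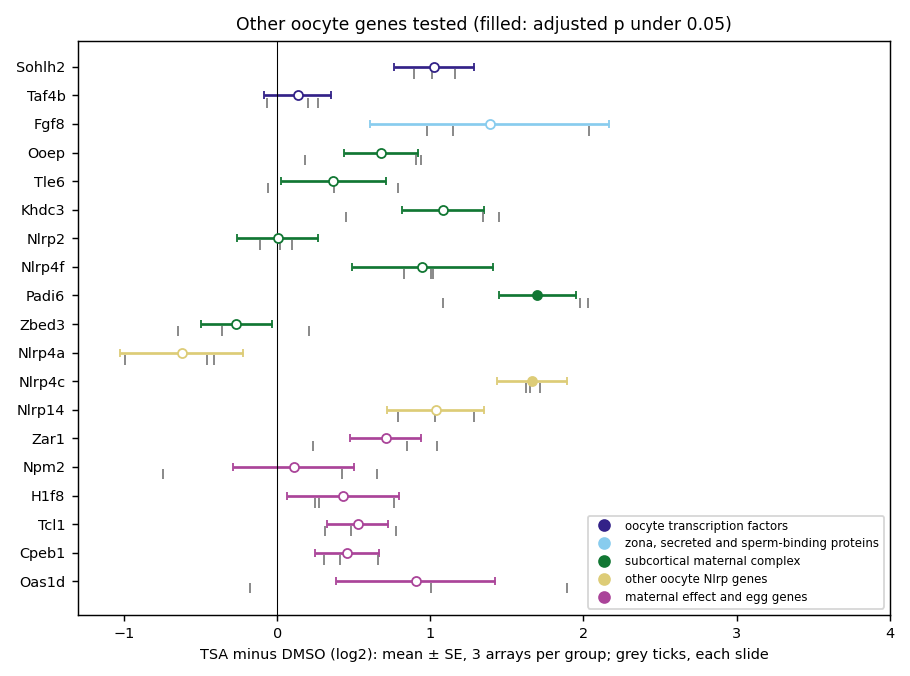
TSA minus DMSO (log2) for the 19 other oocyte genes tested, as mean and standard error over 3 arrays per group, with grey ticks for the 3 slides and a colour for each group of genes. Padi6 and Nlrp4c are filled as called; Nlrp4a and Zbed3 lie below 0.

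Markers of other cells were measured beside these genes. Of 8 primordial germ cell markers with a probe, all were present on all 6 arrays by at least 1 probe. The brighter Dazl probe was not above background on TSA replicate 2. Of the 8 markers, 0 rose or fell by limma, with 1 at an unadjusted p under 0.05, or 12.5% against 14.9% of all tested genes. Their summed level was 641% to 1374% in DMSO and 905% to 2741% in TSA, of which Ifitm3 alone made up 350.1% to 878% and 464% to 2086%. By their mean 7 of the 8 lay higher in TSA, against 8443 of all 14526 tested genes, and the median difference was 0.67. Dppa3 gave 1.62 ± 0.63 (adjusted p = 0.377 by limma). Ddx4, the germ cell helicase, was the one with a lower mean and gave -0.64 ± 0.66 (adjusted p = 0.716). On slides 1, 2 and 3 the Ddx4 difference was -0.13, -1.62 and -0.18. Of 12 granulosa cell markers, the summed level was 553% to 1053% in DMSO and 797% to 1396% in TSA. Fst, for follistatin, which many tissues express, alone made up 384% to 898% and 560.3% to 1052%. The other 11 summed to 125% to 169% and 237% to 344%. Of that remainder, Amhr2 alone gave 72.3% to 82.8% in DMSO and 139% to 232% in TSA (1.28 ± 0.25, adjusted p = 0.0820 by limma). The follicle-stimulating hormone receptor gene Fshr was above background on no array. Differences of the 11 tested granulosa markers ran from -0.77 to 2.78, with a median of 0.16 against 0.08 over all tested genes. By their mean 7 of the 11 lay higher in TSA, and 3 had an unadjusted p under 0.05 by limma (27.3% against 14.9% of all tested genes). Of these markers 1 rose and 0 fell, against 1.36% and 0.0551% of all tested genes. That gene was Esr2, for oestrogen receptor beta, which was above background on 3 TSA and 0 DMSO arrays. By the background bound used for Nobox it was at least 4.34-fold higher (adjusted p = 0.0248 by limma). Like Nobox, it entered the test only through its TSA arrays. The granulosa factor Foxl2 gave 0.08 ± 0.40 (adjusted p = 0.941). Hsd17b1 gave -0.77 ± 0.30 (adjusted p = 0.382 by limma) and the brighter Inha probe -0.62 ± 0.30 (adjusted p = 0.506 by limma). Both were lower in TSA on every slide, without overlap between the groups. Inhba gave -0.63 ± 0.92 and the brighter Kitl probe -0.39 ± 0.56. Markers of 2-cell-like cells, which resemble the cleavage embryo and arise at low frequency among stem cells, were higher beside Nobox. Of 6 tested, 5 rose and 0 fell, against 1.36% and 0.0551% of all tested genes. Their summed level was 33.3% to 57.5% in DMSO and 326% to 650% in TSA. The 2-cell-like genes had been seen to rise in earlier results on these arrays, and their part in the values of Nobox, Padi6 and Nlrp4c was not tested.

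Genes with a pattern most like that of Nobox were ranked by the Pearson correlation of their levels with those of the Nobox probe over the 6 arrays. The 5 nearest named genes were Zfyve28, Lypd3, Degs2, St8sia5 and Proc, with correlations of 0.9977 to 0.9985. With 3 arrays in each of 2 treatments, such values mostly repeat the difference between treatments, so they carry no test. Lypd3, a cell surface protein, rose by 2.46 ± 0.28 (adjusted p = 0.0265) and Degs2, a sphingolipid enzyme above background on 3 of the 6 arrays, also rose (adjusted p = 0.0248).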

How the data were processed

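Intensity values were deposited for each array as Agilent Feature Extraction output (version 10.7 per the submitters' processing notes), with a processed signal that was background-subtracted and detrended within the array per the file headers. The authors also deposited a series table of log2 values, whose scale between arrays is not stated; it served as an alternative. After removal of control spots and of 57 to 84 outlier-flagged spots an array, processed signals were put on the log2 scale, set relative to their array's 75th percentile, and averaged over the spots of a probe. Of 41174 probes, 28158 (68.4%) were present on 3 or more arrays, in either treatment, and were tested with limma 3.58.1 in R 4.3.3 (lmFit, eBayes, two-sided, treatment as the only term), adjusting all tested probes together by Benjamini-Hochberg, with calls at 0.05. Each gene was represented by the tested probe of highest mean level. Of all probes, 27479 had 1 gene name, 0 had several and 13695 had none. The code was tested on simulated data.

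The replicate number is also the slide, and the 2 arrays of a slide deviated together from their group means (correlations of 0.484, 0.614 and 0.585, but -0.568 to 0.0916 across slides), so the numbers pair the samples. P-values of the main fit rest on the spread between independent experiments within each treatment, with this pairing left out. The fit that blocks on the slide takes the pairing in. The 9 genes and all lists were chosen with earlier results of these data known. Named genes are the 9 members, the called genes and up to 3 genes with the smallest adjusted p of each oocyte list. Markers and the 5 genes most like Nobox were also named. Others were named after their values were seen, as Lhx8, Nlrp9b, Mos, Nlrp2, Zbed3, Oosp3, Izumo1r, Ddx4, Dppa3, Dazl, Foxl2, Fshr, Hsd17b1, Inha, Inhba and Kitl. Normexp ran on median spot signals, followed by quantile normalization. The array annotation follows mm9 and promoters GRCm38.p6, so no gene positions are given beside the promoter windows. Promoters came from RefSeq. Python 3.11.15 with pandas 2.3.3 and matplotlib 3.10.9 drew the figures.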

Additional observations from a re-analysis of the deposited data

How the results depend on the processing

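Of the results on single genes, Nobox, Figla, Zp3, Padi6, Nlrp4c and Esr2 were higher in TSA under every alternative that gave a value, and Gdf9 changed sign. The cause was not tested for any change. Without filter the tested set grew to 41174 probes, and leaving arrays out leaves fewer samples. A filter on all 6 arrays left Nobox, Padi6 and Esr2 untested, so they could not be called under it. The count of member genes that rose, 1, became 0 with normexp and quantile normalization together (the joint setting), the authors' table, no filter, a filter on all 6 arrays, no scaling between arrays (added after seeing the data) and slide 2 left out, 2 with array weights, 3 with array weights and the replicate block, and 2 with the mean over a gene's probes. The count of other oocyte genes that rose, 2, became 1 with quantile normalization, the joint setting, the authors' table, a filter on all 6 arrays, the replicate block and an intensity trend, 0 with median centring, no filter, no scaling and slide 2 left out, 4 with array weights, and 8 (and 1 lower) with array weights and the replicate block. By probe, 259 higher and 10 lower became 148 higher with quantile normalization, 133 with median centring, 132 with the joint setting, 142 with the authors' table, 58 (0 lower) with no filter, 617 (41 lower) with the replicate block, 1350 (298 lower) with array weights, 3765 (2109 lower) with array weights and the replicate block, and 0 (0 lower) with no scaling or with slide 2 left out, where 1002 and 4995 probes had an unadjusted p under 0.05 by limma. Leaving out 1 array gave 0 to 575 higher and 0 to 54 lower probes, 0 to 1 member genes and 0 to 3 other oocyte genes; only without TSA replicate 2 was the number above 0, and the other 5 omissions left 2019 to 3327 probes at an unadjusted p under 0.05. Nobox differed by 2.18 to 2.61 with 1 array left out, by 0.46 with the joint setting, 1.35 in the authors' table, 2.35 with no filter, 2.0 with no scaling and 2.30 without slide 2 (adjusted p by limma from 3.82e-04 to 0.593 over its 19 alternatives). The replicate block changed no call among the 4 tested members and ended that of Padi6 (adjusted p = 0.0504). Nobox stayed called in 9 of 19 alternatives, Padi6 in 5 of 19, Nlrp4c in 11 of 20 and Esr2 in 10 of 19. With 1 array left out each of these stayed called only without TSA replicate 2. Gdf9 turned to 0.010 with array weights and the replicate block and to 0.087 on slide 3, and with 1 array left out it ran from -0.35 to 0.15, positive without DMSO replicate 2. No scaling moved the median of all probes from 0.01 to -0.34. Signals near background limit Nobox, Bmp15 and the 4 members present on no array, for which no change could be measured. The Figla signal on DMSO replicate 1, 2.28%, also lay near the lowest present signal of that array, 1.96%.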
